A study of Mus musculus with 419 samples.

Results

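Single mouse embryonic stem cells in which an autosome was read mostly from 1 parental allele were compared with the cells of the same line in which no autosome passed the same limits. The cells belong to F1-21.6, a female hybrid embryonic stem cell line that carries 1 set of chromosomes from strain 129Sv and 1 set from Cast/EiJ (CAST). They were grown on Laminin-511 without feeders, in medium with serum and leukemia inhibitory factor, and were in G1 phase, per the labels. Each of 419 cells was read by RamDA-seq, which covers total RNA over the whole length of transcripts and uses no molecular identifiers, and the authors deposited 1 table of values for each allele. For each cell and autosome the 129 share was the 129 value divided by the sum of both alleles, over 21411 transcript rows that carry allele information. A cell was a member when any autosome had a 129 share under 20% or over 80%. This gave 30 member cells, 7.16% of 419, and 389 other cells. The members were chosen on allele shares, so the shares themselves are a description. The labels name no separate cultures, so all 419 cells are 1 sample of 1 line, and no p-value or standard error was made from cells.

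A diploid cell has 2 copies of each autosome, 1 from each parent, and in a hybrid their RNA can be told apart by strain variants. When RNA of 1 parental allele is missing along a chromosome, the sum over both alleles separates a cell with 1 remaining copy, in which the level of the chromosome falls short by the output of the missing allele, from a cell with 2 copies of the same allele (uniparental disomy), in which the level is near that of other cells. Mouse embryonic stem cells are known to gain and lose chromosomes in culture, and gain or loss of a chromosome is known to stress cells and to activate p53, the transcription factor encoded by Trp53. RNA was measured here and DNA was not, so copies are named only as levels of RNA.

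The 30 cells held 41 cell-chromosome pairs past the limits, of 7961 possible. CAST alone was read in 22 of these pairs and 129 alone in 19. In 28 of the cells a single autosome was affected, with CAST alone in 12 of them and 129 alone in 16. Of the other 2, cell 131 had 4 affected autosomes and cell 86 had 9, so these 2 cells held 13 of the 41 pairs. Affected chromosomes were found among 16 of the 19 autosomes. Chromosome 10 had 6 pairs, chromosomes 9 and 18 had 4 each, and chromosomes 3, 5 and 17 had none. The members came from every sequencing lane, with 8, 4, 4, 6 and 8 cells in the lanes of 88, 83, 82, 80 and 86 cells, and 0 combinations of index pair and lane were shared between cells.

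The level of a chromosome was its sum over both alleles divided by the sum of the cell's other autosomes, set to 1 at the median of cells in which that chromosome lay between the limits. The rule for members did not use it. In 24 of the 28 cells with a single affected autosome the level was under 0.75 (called 1-copy), with a lowest value of 0.335, a median of 0.530 and a highest value of 0.627. The remaining allele in these cells was at 0.802 to 1.11 of its own median in other cells (median 0.963), that is, near the output of 1 allele. The remaining allele was 129 in 16 of these cells and CAST in 8. In the other 4 cells the level was 0.935 to 1.01 (called 2-copy), and the remaining allele was at 1.76 to 1.96 of its median. CAST was the remaining allele in all 4.

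The 2-copy cells were cell 279 for chromosome 9, cells 326 and 479 for chromosome 19, and cell 432 for chromosome 2. Their levels were 0.935, 0.981, 1.00 and 1.01. The SD of the level over the cells between the limits was 0.0682 for chromosome 9, 0.113 for chromosome 19 and 0.0682 for chromosome 2, so each of the 4 levels lay within 1 SD of the median. The missing allele was not at 0. It made up 2.06% to 4.66% of the chromosome's sum in the 2-copy cells and 3.67% to 17.7% in the 1-copy cells with a single affected autosome.

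**Figure D1:**
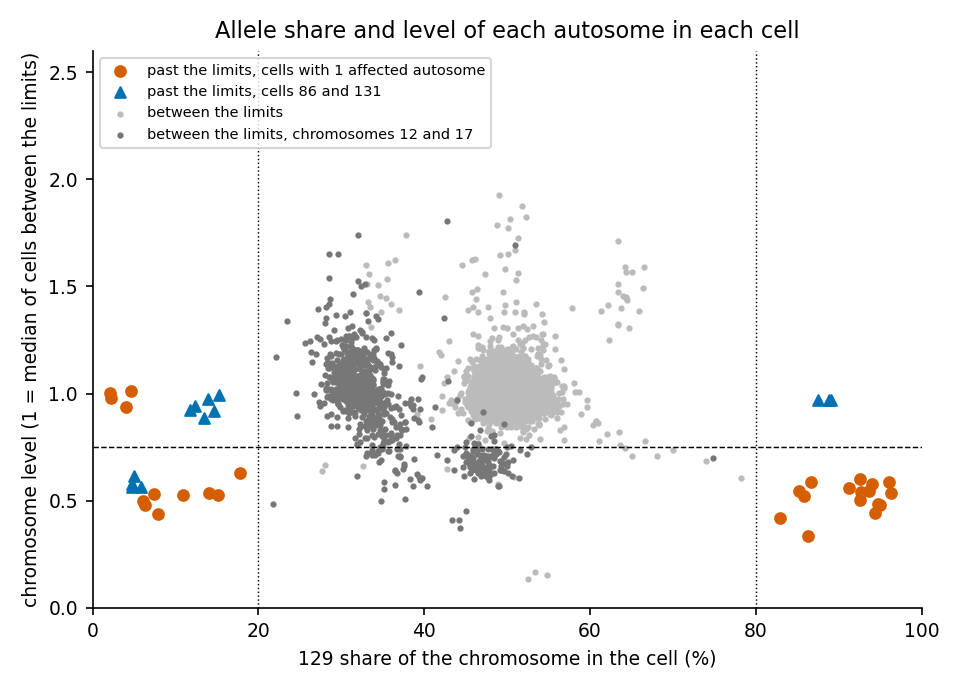
Each point is 1 autosome in 1 cell, with its 129 share in percent on the x axis and its level on the y axis (1 is the median of cells between the limits). Dotted lines mark shares of 20% and 80%, and the dashed line a level of 0.75. The orange points of the 28 cells with 1 affected autosome fall into a band at 0.335 to 0.627 on both sides and a group of 4 at 0.935 to 1.01 on the CAST side, and blue triangles are cells 86 and 131.

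In 5 of the 24 1-copy cells the imbalance left out the proximal end of the chromosome. Along windows of 10 Mb, cell 9 read chromosome 8 from both alleles over the first 30 Mb, with a 129 share of 50.3% and a level of 1.15. Over the rest of chromosome 8 the same cell had a 129 share of 4.83% and a level of 0.532. The change from both alleles to 1 thus came with a change in level. Cell 414 had both alleles over the first 30 Mb of chromosome 4 (60.6% 129, level 0.952) and 88.3% 129 at a level of 0.499 beyond it. Cell 437 was alike over the first 20 Mb of chromosome 4, with 55.0% and 0.829 there and 87.3% and 0.532 in the rest. Cell 273 had 43.2% and 0.866 over the first 20 Mb of chromosome 18, against 7.31% and 0.495 in the rest. Cell 95 had 41.8% and 0.779 over the first 20 Mb of chromosome 1, against 12.6% and 0.512 in the rest. Mouse chromosomes are telocentric, so the end that kept both alleles is the centromeric end in all 5.

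Cells just outside the limits included longer biallelic ends. Cell 408 had a 129 share of 78.2% on chromosome 4 at a level of 0.605, with both alleles over its first 7 of 16 windows. Cell 328 had 74.0% on chromosome 5 at 0.685, again with 7 of 16 windows biallelic from the start, and cell 109 had 70.0% on chromosome 8 at 0.736, with 6 of 13. Just inside the limits, cell 176 had 82.8% on chromosome 12, and cell 9 had 17.7% on chromosome 8. In all, 57 pairs in 48 cells had shares of 25% to 40% or 60% to 75% (chromosomes 12 and 17 left out), the pairs of cells 328 and 109 among them. Their median level was 1.38 and 37 of them were at 1.25 or more, the midpoint between the levels of 2 and 3 copies. Among the 37 were 11 of chromosome 8 towards 129 and 8 of chromosome 6 towards CAST. The levels of the 57 pairs were not taken by the measure used above: cell 328 was at 0.660 and cell 109 at 0.708.

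Chromosome 12 and chromosome 17 need their own reading. Most cells of the line have a low 129 share beyond 80 Mb of chromosome 12: it was under 35% in 22 of 30 member cells (73.3%) and in 273 of 389 other cells (70.2%). Cells 90 and 176 went the other way, with chromosome 12 shares of 86.3% and 82.8% 129, and with 93.7% and 90.7% beyond 80 Mb. Over the first 70 Mb they had 78.9% and 72.4%, inside the limits, at levels of 0.562 and 0.628 against the other cells. Over the whole chromosome their levels were 0.335 and 0.419 against all cells. Against the 113 other cells with balanced alleles beyond 80 Mb they were 0.489 and 0.613. On chromosome 17, the ribosomal RNA rows of CT010467.1 and Gm26917 held 67.4% of the sum at a 129 share of 25.2%. Without these rows 33 cells and 46 pairs passed the limits. The added pairs were chromosome 17 in cells 86 and 131, with shares of 14.0% and 7.28%, and in cells 155, 258 and 357, with 93.6%, 93.6% and 93.97%. The levels of the last 3 were 0.943, 1.03 and 0.946, so they were 2-copy with 129 as the remaining allele. The rule as given counts these 3 among the 389 other cells.

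Cells 86 and 131 differed from the other members in the number of affected autosomes, and cell 86 also in its pattern of levels. Levels in this paragraph leave out the ribosomal RNA rows and divide the chromosome's sum by that of all autosomes. They are set to 1 at the median of the other cells. In cell 131, chromosomes 6, 7, 9, 14 and 17 were read from CAST at 0.544 to 0.602. Another 13 were read from both alleles at 1.07 to 1.25. In the same cell chromosome 12 was at 1.20 with 35.9% 129. In cell 86, 18 of the 19 autosomes fell into 3 levels, and chromosome 12 was at 0.710 with 74.9% 129. Chromosomes 1, 3, 4, 5 and 19 had both alleles at 1.65 to 1.79 with shares of 50.1% to 52.2%. The 10 autosomes with 1 allele were at 0.895 to 0.998, with 129 remaining on chromosomes 6, 8 and 16 and CAST on chromosomes 7, 9, 10, 13, 15, 17 and 18. Chromosomes 2, 11 and 14 were at 0.143 to 0.182 with 52.5% to 54.9% 129.

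The level is relative to the cell's other autosomes, so a cell with many affected autosomes moves its own scale. In cell 86 the levels of chromosomes with 1 allele and with both alleles had medians of 0.960 and 1.77, over the sum of all autosomes. Those of the 24 1-copy cells and of cells between the limits had 0.530 and 1, over the sum of the other autosomes. By this second measure chromosome 1 of cell 86 was at 1.88, and the cell's 9 pairs were at 0.888 to 0.995. The 9 pairs of cell 86 are counted as 2-copy by the limit of 0.75, but this count takes no account of that shift. Cell 86 had 24583 rows above 0, fewer than all but 1.03% of the other cells, and its cell total of 876244 lay within the range of 698363 to 1477656 over other cells. Whether it is a cell of poor RNA was not tested.

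**Figure D2:**
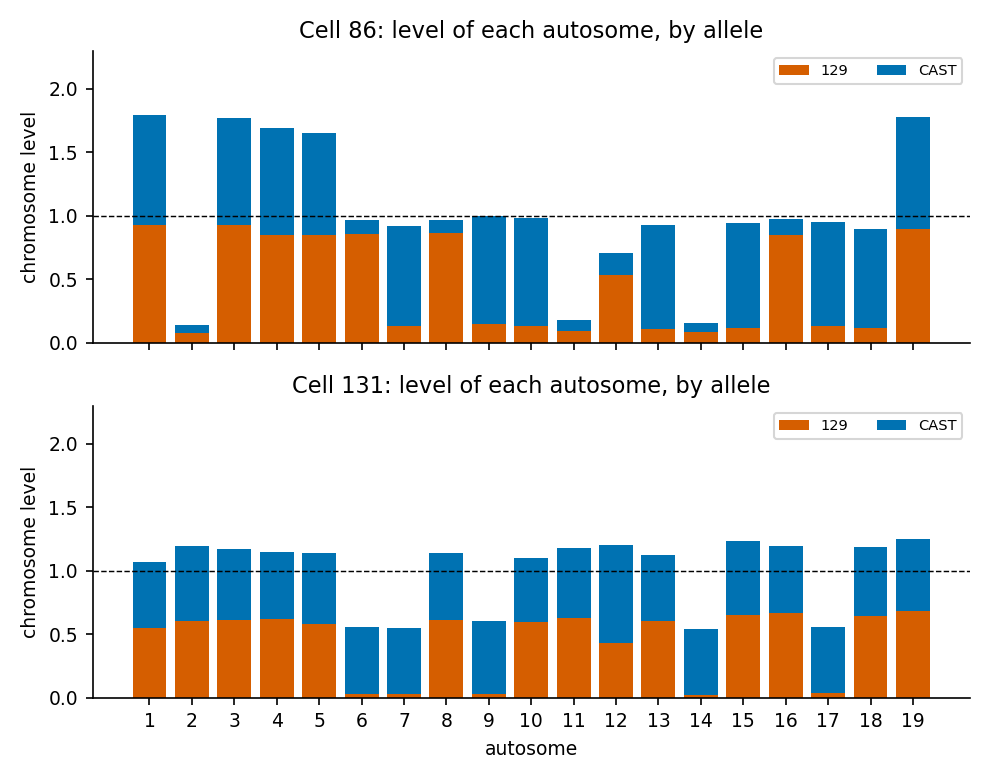
Bars give the level of each autosome in cell 86 (top) and cell 131 (bottom), without the ribosomal RNA rows, with the 129 part in orange and the CAST part in blue. The level here is the chromosome's sum over that of all autosomes, and the dashed line at 1 is the median of the other cells. Cell 86 shows 3 heights, with medians of 1.77, 0.960 and 0.157 beside chromosome 12, and cell 131 shows 5 chromosomes with CAST alone at 0.544 to 0.602.

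Genes along a 1-copy chromosome were lower together. Chromosome 10 had the most 1-copy cells, 4 with 129 remaining (cells 184, 227, 271 and 290) and 1 with CAST (cell 154). Over the mean of these 5 cells, 77.3% of its measured genes were lower by at least 1.5-fold than in the other cells, with a median fold of 0.522. Of 5750 genes on the other autosomes in the same 5 cells, 6.89% were that low, with a median fold of 1.02. The share lower on chromosome 10 follows from the level that made these cells 1-copy and is a description. For 12 chromosomes there was a 1-copy cell with no biallelic end. The median fold of the chromosome's genes in such cells lay between 0.407 (chromosome 12) and 0.584 (chromosome 9). The chromosome 12 fold is against all other cells: beyond 80 Mb, cell 90 was at 0.237 against these and 0.438 against balanced ones. Chromosomes 1, 2, 4, 6 and 7 rest on 1 cell each, in which 17.9% to 27.2% of genes on other autosomes were also lower. Gene values below are sums over both alleles, in the authors' scaled units after each cell was set to the same autosomal sum.

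Eef2 (ENSMUSG00000034994, chromosome 10, 81176631 to 81182498, mm10) encodes the elongation factor that moves the ribosome along the messenger. Its value was 1378, 1230, 629 and 1044 in cells 184, 227, 271 and 290, and 977 in cell 154, against a median of 2123 in other cells (5th to 95th percentile 1611 to 2816). All 5 cells lay under the 5th percentile. The 129 part in the 4 cells that kept 129 was 1371, 1217, 625 and 1035, close to the 129 median of 1118 in other cells except in cell 271. CAST made up 4.08 to 13.1 in those cells, against a median of 1009 in other cells. Atp5b (ENSMUSG00000025393, chromosome 10, 128083273 to 128090391), a subunit of mitochondrial ATP synthase, had 523, 568, 501 and 427 in the same 4 cells and 598 in cell 154, against a median of 975 in other cells. These values too lay below the 5th percentile of 779. Tet1 (ENSMUSG00000047146, chromosome 10, 62804570 to 62908996), which oxidises methylated cytosine in DNA, varied more: the 5 cells had 955, 915, 117, 457 and 774, against a median of 1582 and a 5th to 95th percentile of 127 to 2476 in other cells.

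Rps12 (ENSMUSG00000061983, chromosome 10, 23785183 to 23787275), a protein of the small ribosomal subunit that in Drosophila is needed for the competition between cells that differ in ribosomal protein gene dose, lay below the output of 1 allele in 3 of these cells. Its value was 61.6, 29.6 and 0 in cells 227, 271 and 290, the 3 lowest values of all 419 cells. The other 2 chromosome 10 cells, 184 and 154, had 560 and 624, against a median of 1022 and a 5th percentile of 722 in other cells. The 129 part was 51.5, 29.6 and 0 in the 3 lowest cells, although each kept the 129 chromosome and the 129 median in other cells was 451. The lowest other cell, cell 49, had 143 with both alleles of chromosome 10 present (share 48.0%, level 1.04), so low Rps12 was also seen without loss of chromosome 10. In cell 184 the CAST part of Rps12 was 223 although CAST was otherwise missing from its chromosome 10. Rps12 is read from 1 row and has processed copies elsewhere in the genome, so its value and its allele split are uncertain.

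A search over all 41 pairs set this beside other genes. Of 691 genes with a 5th percentile of at least 100 in other cells, those on an affected chromosome were listed when the member's value was under 10% of the other cells' median. It found 6 cases: Rps12 in 3 cells, Tet1 in cell 271, Bcat1 on chromosome 6 in cell 131 (6.43 against a median of 406) and Rian on chromosome 12 in cell 90 (33.3 against 1735). Values that low were found in 22 other cells for Tet1, 7 for Bcat1 and 16 for Rian, and in 0 for Rps12. This search was made after the values were seen.

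**Figure D3:**
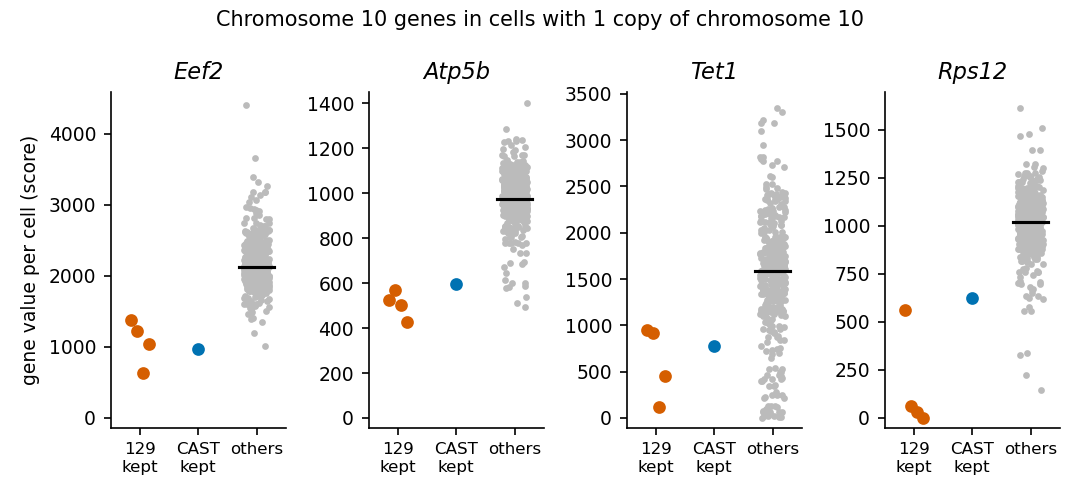
Points give the value of 4 chromosome 10 genes per cell (sum over both alleles, authors' scaled units on a linear axis). Orange marks the 4 1-copy cells with 129 remaining, blue the 1-copy cell with CAST remaining, and grey the 389 other cells, with a line at their median. Eef2 and Atp5b lie below the 5th percentile of the other cells in all 5 cells, and Rps12 lies at 0 to 61.6 in 3 of the 4 cells with 129 remaining.

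Chromosome 9 allowed a 1-copy and a 2-copy chromosome to be set side by side. Rpl4 (ENSMUSG00000032399, chromosome 9, 64173375 to 64178666), a protein of the large ribosomal subunit, had 872 in the 1-copy cell 317 (129 remaining), 938 in the 1-copy chromosome of cell 131 (CAST remaining) and 1328 in the 2-copy cell 279 (CAST remaining), against a median of 1378 in other cells (5th percentile 1125). The 2-copy cell had 0 from 129 and 1328 from CAST, where the CAST median in other cells was 686. Pkm (ENSMUSG00000032294, 59656368 to 59679375), which catalyses the last step of glycolysis, had 944, 640 and 1459 in cells 317, 131 and 279, against 1373. Eef1a1 (ENSMUSG00000037742, 78478449 to 78489151), the factor that brings aminoacyl-tRNA to the ribosome, had 2854, 3614 and 5975, against 5245. For these 3 genes the 2-copy cell lay near the median of other cells. The 1-copy chromosomes lay below the 5th percentile of other cells for Rpl4 and for Eef1a1 (3720), and for Pkm (775) in cell 131 but not in cell 317. Hspa8 (ENSMUSG00000015656, 40800984 to 40810087), the constitutive HSP70 chaperone, had 3092, 3547 and 3449 in the 3 cells, all inside the 5th to 95th percentile of 2559 to 6198 in other cells.

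On chromosome 18, cells 55 and 273 kept CAST and cell 345 kept 129, all at a 1-copy level. Atp5a1 (ENSMUSG00000025428, 77773729 to 77782869), another subunit of ATP synthase, had 380, 396.4 and 417 in cells 55, 273 and 345, against a median of 806 in other cells. Hspa9 (ENSMUSG00000024359, 34937414 to 34954357), the mitochondrial HSP70 chaperone, had 206, 205 and 192.1, against 491. Etf1 (ENSMUSG00000024360, 34902785 to 34932007), which ends translation at stop codons, had 128, 187 and 143, against 452. Csnk1a1 (ENSMUSG00000024576, 61555274 to 61590061), a casein kinase that marks beta-catenin for destruction, had 257, 186 and 107, against 405. All 12 values lay below the 5th percentile of other cells, which was 571 for Atp5a1, 310 for Hspa9, 295 for Etf1 and 276 for Csnk1a1.

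Imprinted genes are read from 1 parental allele in tissues, so loss of a parental chromosome can take away the active copy. In this line Kcnq1ot1 was at 50.2% 129 and Snrpn at 45.9% 129 in the pooled cells. In cells 86 and 131, which kept CAST on chromosome 7, Kcnq1ot1 had 0 and 10.7 from 129 and Snrpn had 0 in both. The 129 medians of these genes in other cells were 206 and 57.9, so their rows hold allele information. For other genes, a pooled share near 50% is no evidence of both alleles where rows hold no allele information. Gnas on chromosome 2, with 4.84% of its value in rows that passed the limit on allele difference, had 51.3 from 129 and 58.4 from CAST in cell 432, which kept CAST. Grb10 too had 9.18 from 129 and 10.2 from CAST in cell 464, which kept 129, although 93.8% of its value lies in such rows. Meg3, a noncoding RNA of the imprinted cluster on chromosome 12 (109541001 to 109571726), had 2.15 from 129 and 2.15 from CAST in cell 90, and 201.1 and 9.73 in cell 176, against medians of 97.9 and 538 in other cells. Rian, its neighbour (109603940 to 109661716), had 23.6 from 129 in cell 90 and 323 in cell 176, against 287. Rtl1 and Mirg of the same cluster were at 0 from both alleles in cell 90, and had 60.6 and 64.9 from 129 in cell 176. The 2 cells that kept the 129 chromosome 12 thus differed in this cluster. Rtl1 is overlapped by an antisense RNA, and Kcnq1ot1 lies antisense within Kcnq1. No source used here states a use of strand, so reads of these partners cannot be told apart.

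Peg10, a retrotransposon-derived gene on chromosome 6 (4747306 to 4760517), had 2628 from CAST in cell 131 and 1786 from 129 in cell 86, against medians of 1566 and 907 for these alleles in other cells. On chromosome 7, Kcnq1ot1 had 119 from CAST in cell 131 and 226 in cell 86, against 201.2. In cell 86 the 129 sum of chromosome 6 was at 1.74 of its median in other cells, and the CAST sum of chromosome 7 at 1.55. The values of Peg10 and Kcnq1ot1 in cell 86 are not corrected for that shift. Sfmbt2 on chromosome 2 (10370510 to 10595253) had 95.5 from CAST in the 1-copy cell 400 and 285 in the 2-copy cell 432, against a CAST median of 43.7 in other cells. Impact on chromosome 18 (12955852 to 12992950) had 72.2 and 103 from CAST in cells 55 and 273, and 63.7 from 129 in cell 345, against medians of 79.6 for CAST and 89.003 for 129. The remaining allele of these 4 genes, picked after their values were seen, was above 0 in every cell named. The remaining allele was at 0 for H19, of low level in most cells, in cells 86 and 131, for Plagl1 in cell 86 and for Nnat in cell 432. It was also at 0 for Zrsr1 in cell 464, Peg13 in cell 86 and Igf2 in cells 86 and 131, besides Rtl1 and Mirg in cell 90. Igf2 had a median of 0 in other cells.

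Genes outside the affected chromosomes were then compared. For each gene, member cells whose affected chromosome holds it were left out. The mean over the remaining member cells was divided by the mean over the 389 other cells. Member cells with an intermediate share of the gene's chromosome were kept. Of 6316 genes with a mean of at least 20, 141 (2.23%) were higher in member cells by at least 1.5-fold and 43 (0.681%) were lower, and the median log2 ratio of all 6316 was 0.04. In the 25 1-copy cells alone, 3.18% were higher and 1.14% lower. In the 4 2-copy cells with a single affected autosome, 123 (1.95%) were higher and 343 (5.43%) lower, a count that rests on 4 cells. Of the genes past 1.5-fold over all member cells, 92 higher and 21 lower were above 0 in at least 50% of cells and went the same way in all 5 lanes.

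Genes of the p53 response stood among those higher in member cells. Of 24 known p53 targets listed, 17 were measured, and 10 of these were higher by at least 1.5-fold and 0 lower, where 2.23% of all genes were higher. All 17 had a log2 ratio above 0, and their median was 0.66. In the 1-copy cells the same count was 10 of 17 with a median of 0.77, where 3.18% of all genes were higher. In the 2-copy cells with a single affected autosome 0 were higher and 5 of 17 were lower, with a median of -0.25, where 5.43% of all genes were lower. The difference between the 2 kinds of cells was not tested, since all cells are 1 sample.

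Btg2 (ENSMUSG00000020423, chromosome 1, 134075170 to 134079120), an antiproliferative p53 target, had a lowest, median and highest value of 7.17, 48.8 and 298 in 28 member cells, against 0, 12.6 and 300.5 in other cells. It was above the other cells' median in 26 of 28, and its log2 ratio was 1.51 ± 0.66 (SD over 5 lanes), with 1.71 in 1-copy cells and -0.86 in 2-copy cells. Trp53inp1 (chromosome 4, 11156431 to 11174379), which promotes cell death and autophagy downstream of p53, had 71.4, 332 and 967 in 27 member cells, against 1.97, 112 and 1036 in other cells. Its log2 ratio was 1.19 ± 0.51, and 26 of 27 members were above the other cells' median. Mdm2 (chromosome 10, 117688875 to 117710758), the ubiquitin ligase that degrades p53 and is itself a p53 target, had 42.3, 148 and 891 in 24 member cells, against 10.8, 80.2 and 1278 in other cells. Its log2 ratio was 1.11 ± 0.81, positive in 4 of 5 lanes, and 21 of 24 members were above the median. The groups overlapped over their whole range for all 3 genes.

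Ccng1 (chromosome 11, 40748552 to 40755311), cyclin G1, a p53 target that acts on Mdm2, had a median of 307.5 in 28 member cells and 119 in other cells, with a log2 ratio of 0.81 ± 0.30 (SD over 5 lanes). Phlda3 (chromosome 1, 135766119 to 135769136), a p53 target that inhibits AKT, had medians of 74.8 and 31.9 and a log2 ratio of 0.85 ± 0.28, and 27 of 28 members were above the other cells' median. Zmat3 (chromosome 3, 32334792 to 32366014), a p53-induced RNA-binding protein, had medians of 272 and 144 and a log2 ratio of 0.66 ± 0.22. These 3 were higher in all 5 lanes. Plk2, a p53-induced polo-like kinase, was at 1.13 ± 0.82, Pmaip1 (the cell-death inducer NOXA) at 0.74 ± 0.67, and Cdkn1a (the cyclin-dependent kinase inhibitor p21, chromosome 17, 29090976 to 29100727) at 0.61 ± 0.63, each higher in 4 of 5 lanes. Perp, a membrane protein induced by p53, was at 0.74 ± 1.34 and higher in 3 lanes. The 7 other measured targets lay between 0.12 for Aen and 0.53 for Ei24, and did not pass 1.5-fold. Trp53 itself had a median of 297 over all 30 member cells and 290 in other cells. Unlike the values above, this median kept the 2 cells that were 1-copy for chromosome 11, which holds Trp53. The Trp53 median was 327.6 in the 19 cells with a single 1-copy chromosome and no biallelic end, those 2 cells among them. It was 275.6 in the 5 with a biallelic proximal end.

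**Figure D4:**
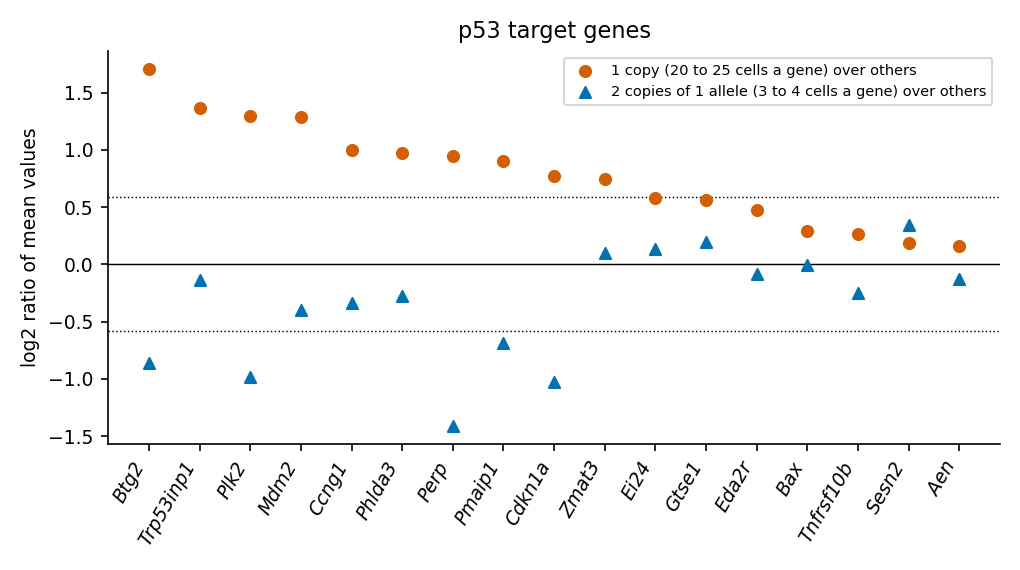
Log2 ratio of the mean value of 17 p53 target genes, outside the affected chromosomes, in 1-copy cells (orange circles) and in the 4 2-copy cells with 1 affected autosome (blue triangles), each over the 389 other cells. Dotted lines mark 1.5-fold. The orange circles run from 1.71 for Btg2 to 0.16 for Aen, and the blue triangles pass the lower line for 5 genes and the upper line for 0.

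p53 binds DNA as a tetramer at sites built from decamers. Promoter sequences from RefSeq (GRCm38.p6, 250 bases before to 50 after a start) were matched by symbol for 12 of the 17 measured targets and searched for the p53 half-site decamer, a palindromic consensus that covers both strands. It was found in a window of 7 of these 12 genes, where 9.55% of 27025 genes with a window hold it (8.36% of 32851 windows). Among the 12 it was in 3 of the 6 genes higher by 1.5-fold and in 4 of the 6 that were not. The 3 are shown, 5′ to 3′ on the strand of the gene, because these genes were among those higher in 1-copy cells. Capitals mark a match to the decamer.
Ccng1, chr11:40755422-40755511, minus strand: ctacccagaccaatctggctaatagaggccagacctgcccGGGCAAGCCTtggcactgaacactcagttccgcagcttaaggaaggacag
Mdm2, chr10:117710895-117710984, minus strand: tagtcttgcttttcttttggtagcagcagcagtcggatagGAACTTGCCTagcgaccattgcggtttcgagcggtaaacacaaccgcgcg
Cdkn1a, chr17:29090888-29090977, plus strand: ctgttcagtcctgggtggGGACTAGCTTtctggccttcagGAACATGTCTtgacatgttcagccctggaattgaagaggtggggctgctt
A match is a description of these letters and not a bound site.

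A p53 target level was computed per cell as the mean over the measured targets of the log2 value minus its mean in other cells, leaving out genes on the cell's own affected chromosomes. In the 25 1-copy cells it ran from -0.12 to 1.97 with a median of 1.06, against -1.89 to 2.34 with a median of -0.09 in the 389 other cells. It was above the other cells' median in 24 of 25 and above their upper quartile of 0.46 in 21 of 25. The 4 2-copy cells with a single affected autosome had -0.30, -0.11, 0.21 and 0.37, of which 0 were above that quartile, and cell 86 had -0.25. Cells 155, 258 and 357, 2-copy for chromosome 17 outside the rule, had -1.55, -0.70 and 0.52. The groups overlapped: the highest value of all was in an other cell.

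Among 1-copy cells the p53 target level was not the same for all. The 16 cells that kept 129 had a median of 1.26 (-0.12 to 1.97), and the 9 that kept CAST had 0.73 (0.18 to 1.68). The 19 with a single 1-copy chromosome and no biallelic end had a median of 1.18, and the 5 with a biallelic proximal end had 0.57. Of the 19, cells 8, 154, 410 and 464 also had an intermediate autosome at 1.25 or more, as did cell 9 of the 5. Cell 131 with its 4 pairs had 0.41. The highest values were 1.97 in cell 317 (chromosome 9), 1.68 in cell 410 (chromosome 4), 1.64 in cell 90 (chromosome 12) and 1.64 in cell 375 (chromosome 1), so they came from different chromosomes. The cells just outside the limits with a low level of chromosomes 4, 5 and 8, cells 408, 328 and 109, had 1.63, 1.00 and 1.84. The 25 other cells with an intermediate autosome at a level of 1.25 or more had a median of 0.06.

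**Figure D5:**
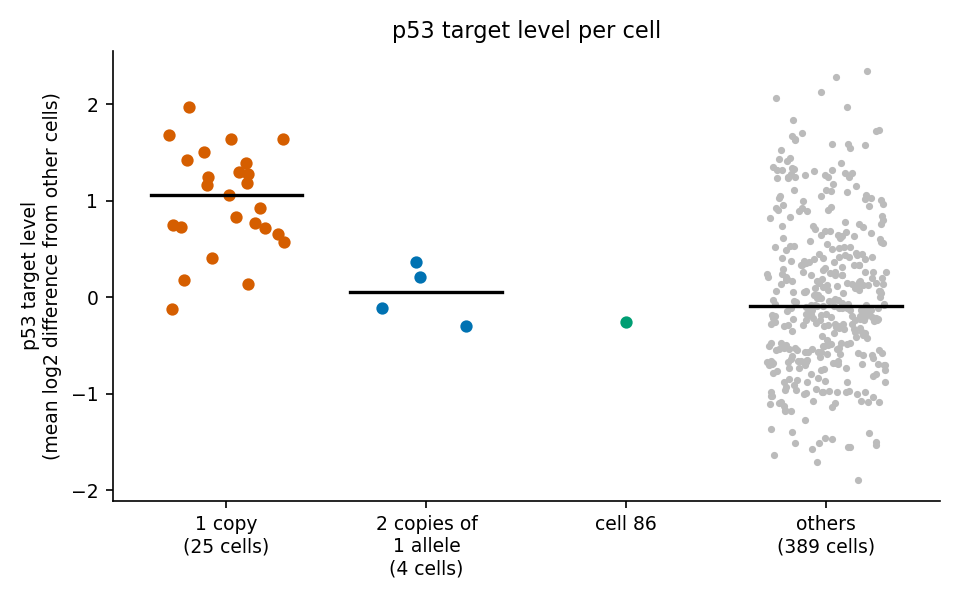
Each point is the p53 target level of 1 cell (mean log2 difference from other cells) in 25 1-copy cells, 4 2-copy cells with 1 affected autosome, cell 86 and 389 other cells, with lines at the medians. The 1-copy cells have a median of 1.06, the other cells -0.09, and both the 2-copy cells and cell 86 lie between -0.30 and 0.37.

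The order of the groups held within lanes. The member cells' median p53 target level was 0.85, 0.56, 0.91, 1.30 and 0.74 in the 5 lanes, against -0.09, -0.11, -0.18, 0.09 and -0.09 for the other cells. Cell totals had a median of 894409 in the 1-copy cells and 929583 in other cells, and rows above 0 a median of 29789 in 1-copy cells and 29416 in other cells. The chromosome X level, taken from the CAST table alone since the 129 table is 0 on X, was under 0.75 in 4 of 30 member cells (13.3%) and in 19 of 389 other cells (4.88%). Those 19 other cells had a median p53 target level of 0.57, with a range of -1.89 to 1.59. The part of the X level in the p53 target level was not tested.

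Besides Btg2, 9 genes had the highest ratios among those that went the same way in every lane. Slc4a11, a transporter of the cell surface (chromosome 2, 130684113 to 130697519), had a mean of 64.2 in member cells and 19.3 in other cells, a log2 ratio of 1.68 ± 0.45 (SD over 5 lanes), with 24 of 28 members above the other cells' median. Mmrn2, an extracellular matrix protein (chromosome 14, 34375465 to 34404287), was at 1.58 ± 0.43. Plin2, which coats lipid droplets, was at 1.44 ± 0.71, and Lpin1, a phosphatidate phosphatase of lipid synthesis, at 1.37 ± 0.46. Mcam and Eng, cell-surface proteins best known from endothelium, were at 1.33 ± 0.65 and 1.28 ± 0.37. The metalloprotease Adamts7 was at 1.35 ± 0.92, the lactate dehydrogenase subunit Ldhb at 1.28 ± 0.57 and the heparan sulfate proteoglycan Sdc4 at 1.24 ± 0.32. Of these 9 and Btg2, only Plin2 was also above 0 in the 2-copy cells (0.52), and the 9 others lay between -0.08 for Mcam and -1.86 for Sdc4 there.

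Of the 10 genes with the lowest ratios under the same rule, 7 are given first. Gpt2, the mitochondrial alanine aminotransferase (chromosome 8, 85492576 to 85527560), had a mean of 23.9 in member cells and 48.9 in other cells, a log2 ratio of -1.002 ± 0.43 (SD over 5 lanes), and only 3 of 28 members were above the other cells' median. Pck2, the mitochondrial form of phosphoenolpyruvate carboxykinase (chromosome 14, 55540266 to 55551242), was at -0.94 ± 0.66 with 5 of 27 above. Slc27a2, a fatty acid transporter, was at -0.97 ± 0.31. Tdrd12 of the piRNA pathway was at -0.998 ± 0.65, the kinase gene Pim2 on X at -1.04 ± 0.48, the growth factor adaptor Grb10 at -1.11 ± 0.83 and the neurofilament gene Nefl at -0.90 ± 0.93. Gpt2, Slc27a2 and Pck2 were at 0.34, 0.14 and 0.25 in the 2-copy cells. Tagln and Tgm2 had the lowest ratios, -2.36 and -1.78, and Phldb2 was at -0.78. For Tagln the median was 3.96 in member cells and 2.31 in other cells, so its ratio of means rests on high values in a few other cells (95th percentile 253). Phldb2 also turned direction, to 0.74, when mean log2 values were compared.

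The lists of other stress responses differed among themselves. Of 12 measured apoptosis regulators 2 were higher by 1.5-fold, where 2.23% of all genes were higher: Apaf1 of the apoptosome (1.02 ± 0.48, SD over 5 lanes) and Pmaip1, which is also on the p53 list, and Apaf1 is itself a known p53 target. Of 12 measured genes of the integrated stress response 0 were higher and 2 lower, where 0.681% of all genes were lower. The 2 were Trib3, a pseudokinase induced by ATF4 (-0.70 ± 0.33), and Aldh18a1 of proline synthesis (-0.64 ± 0.46). The list median was -0.37, and 1 of the 12 had a log2 ratio above 0. In 1-copy cells 5 of these 12 were lower, where 1.14% of all genes were lower, and the list median was -0.47. Of 14 genes of autophagy and lysosome 1 was higher, the protease Ctsd (0.92 ± 0.54). Of 20 heat shock chaperones and 31 proteasome subunits 0 passed 1.5-fold, with medians of -0.02 and 0.09. Of 47 cytosolic ribosomal protein genes 0 passed, with a median of 0.02, and the lowest, Rpl35, was at -0.44 ± 2.03.

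Genes of chromosome segregation and of the cell cycle were within 1.5-fold over all member cells. Of 23 measured genes of the spindle checkpoint and kinetochore, 19 of cohesin and its release, 20 of G2 and M phase, 23 of G1/S and replication, 21 of the DNA damage response and 14 of recombination, 0 were higher and 0 lower by 1.5-fold. Their list medians lay between -0.01 and 0.09. Among all genes 2.23% were higher and 0.681% lower, so 0 in lists of this size is near the share over all genes. At the ends of these lists, Mad1l1 of the spindle checkpoint was at 0.28 ± 0.45, Top2a, the topoisomerase that untangles DNA, at -0.29 ± 0.19, the checkpoint kinase Chek2 at 0.34 ± 0.27, and cyclin D1 (Ccnd1) at -0.42 ± 0.68. In the 1-copy cells alone Ccnd1 was at -0.61, the 1 gene of these lists past 1.5-fold there, where 1.14% of all genes were lower.

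Markers of the labelled cell type were present in member cells and in other cells. Of 14 measured naive pluripotency genes, Klf4 was higher (0.60 ± 0.80, SD over 5 lanes) and Klf2 lower (-0.66 ± 0.43) by 1.5-fold. Of 8 core pluripotency genes 0 passed. Among all genes, 2.23% were higher and 0.681% lower, which stands beside every list count over all member cells in this paragraph. Klf4 was at 0.38 in 1-copy cells and 1.27 in the 4 2-copy cells, and higher in 4 of 5 lanes. In 1-copy cells 0 naive genes were higher and 2 were lower, Klf2 (-0.66) and Nr0b1 (-0.75), and 1 core gene was lower, Lin28a (-0.70). Among all genes 3.18% were higher and 1.14% lower in those cells. The summed level of the naive list was 1424 to 6483 in member cells (median 3550) and 28.9 to 6579 in other cells (median 3316). That of the core list, which holds Pou5f1 and Sox2, had medians of 2086 and 2209. Summed fibroblast markers ran from 176 to 3557 in member cells and from 46.6 to 29980 in other cells, and trophectoderm markers from 18.8 to 3343 and from 18.3 to 14694, so the highest cells of both lists were other cells. The fibroblast genes Acta2 (-5.63), Tagln and Thbs1 (-2.15), 3 of the 5 measured, were lower in member cells by the ratio of means. Vim and Fn1 of that list were at -0.57 and 0.26. Of 4 measured trophectoderm genes, the keratins Krt8 (-0.997) and Krt18 (-0.88) were lower by this ratio. Tfap2c and Tead4 of that list went the other way, at 0.14 and 0.45. For Krt8, 19 of 29 members were above the other cells' median, and Krt8 and Krt18 turned to 0.41 and 0.14 with mean log2 values. Summed primitive endoderm markers had medians of 673 in member cells and 645 in other cells, formative and primed markers 1205 and 1365, and 2-cell state markers 0 in both. Of 20 measured imprinted genes, Plagl1 was higher (0.62 ± 1.05) and Grb10 and H19 lower (-0.60 for H19, which turned to 0.015 with mean log2 values).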

How the data were processed

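RamDA-seq of 419 single G1 cells of 1 hybrid line was deposited as 2 tables, 1 per allele, of 117762 Ensembl transcript rows. The deposited values are whole numbers that the authors had scaled to nearly common totals per cell, from the values themselves (416357 ± 27510 for 129 and 509052 ± 35968 for CAST, SD over 419 cells), so their unit was taken as a score and not as counts. Reads per cell and the tool that split the alleles are not given in the sources used here, so no counting interval is given. The submitters' processing notes name Bowtie 1.1.2 and the build mm10 without a role.

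Rows were joined to GENCODE vM21 (mm10), with 116824 matched and 938 not, which hold 0.36% of all values. Shares used rows with a pooled sum of at least 1000, a pooled 129 share of 10% to 90% and a summed allele difference of at least 10% of the row sum. Windows were 10 Mb with at least 5 rows, called biallelic at shares of 30% to 70%, and a segment needed 2 in a row. For genes, all rows were summed, cells were scaled to the mean autosomal sum, and the log2 ratio of means used a pseudocount of 1. Genes needed a mean of at least 20. A call was 1.5-fold, with no test. Errors given over lanes are between the 5 sequencing lanes and may be technical.

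The members, gene lists and markers were chosen with earlier results of these data known. The text names the 10 highest and 10 lowest called genes that were above 0 in at least 50% of cells and went the same way in all lanes, up to 4 members of each list, imprinted genes on affected chromosomes, and 4 strongly read genes of each of chromosomes 9, 10 and 18. Further p53 targets, Trp53, Bcat1 and the promoters were picked after their values were seen. No cell was left out and no doublet caller was run. The calculations, tested on simulated data, used Python 3.11.15, numpy 2.4.6, pandas 2.3.3 and matplotlib 3.10.9. Alternatives were other share limits, row filters, level measures, pseudocounts, gene filters, scalings and each lane left out.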

Additional observations from a re-analysis of the deposited data

How the results depend on the processing

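The 30 member cells and 41 pairs stayed within 1.5 times under every alternative tried on row filters. Other level measures cannot change these counts, since members were chosen on shares. At limits of 10% and 90% there were 23 pairs (12 CAST alone, 11 129 alone) and 4 at a 2-copy level. Without cells 86 and 131, chosen after seeing the data, 12 pairs had CAST alone and 4 were 2-copy. Leaving out each lane gave 25 to 37 pairs, 13 to 21 with CAST alone, 12 to 17 with 129 alone and 4 to 13 at a 2-copy level, the lowest count of 2-copy pairs being without lane 2, which holds cell 86. Leaving out each lane gave 43 to 73 genes lower, the most without lane 6. With a gene mean of at least 5 there were 381 genes higher and 141 lower, and with no filter 946 and 388. The 1-copy cells alone gave 72 genes lower. The 2-copy cells with 1 affected autosome alone, an alternative added after seeing the data, gave 343 genes lower and 0 of 17 p53 targets higher. Over all other alternatives 8 to 11 p53 targets were higher, including 10 without the ribosomal RNA rows, 10 without cells 86 and 131, and 10 against the 342 other cells with every autosome but 12 between 40% and 60%.

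Single genes turned direction in 2 settings. With mean log2 values Phldb2 was at 0.74, Krt8 at 0.41, Krt18 at 0.14 and H19 at 0.015. In the 4 2-copy cells Slc4a11 was at -0.30, Mmrn2 at -0.59, Btg2 at -0.86, Lpin1 at -0.45, Adamts7 at -0.46, Mcam at -0.076, Eng at -0.60, Ldhb at -1.04, Sdc4 at -1.86, Trp53inp1 at -0.14, Ctsd at -0.42, Pmaip1 at -0.69 and Apaf1 at -0.23. In the same cells Gpt2 was at 0.34, Slc27a2 at 0.14, Pck2 at 0.25, Trib3 at 0.25 and Aldh18a1 at 0.24. The cause was not tested. No paired analysis was possible because the labels give 1 group only. Depth in reads is unknown, 1 line was sampled, and levels are relative within a cell, so small losses and cells with many affected autosomes are read less surely.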
